A study of Mus musculus with 27 samples.

Results

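Growth hormone responsive genes of the liver were examined in male *Mlx*KO mice of 2 ages, 5 and 20 months. The 10 genes are *Ghr*, *Stat5a*, *Stat5b*, *Socs2*, *Cish*, *Bcl6*, *Hsd3b5*, *Elovl3*, *Slco1a1* and *Mup20*. They were taken by symbol from a table of 36333 genes, and all 10 were found there. RNA was sequenced from liver, omental adipose tissue and skeletal muscle, and each tissue had 4 samples from mice of 5 months and 5 samples from mice of 20 months, which gives 27. All mice came from ROSA26-CreERT2 animals, with the allele Gt(ROSA)26Sortm1(cre/ERT2)Tyj, bred to Mlx Flox/Flox animals, and in them the ubiquitous ROSA26 promoter drives a Cre that tamoxifen activates, by which *Mlx* is deleted body-wide. Every animal, at both ages, had received tamoxifen at 75 mg/kg in corn oil on 5 days at weaning. The same 4 mice of 5 months gave all 3 tissues and are labelled X5L4299, X5L5001, X5L5238 and X5L5239 in liver, with X5F or X5S as the start of the label in adipose tissue or muscle. The 20-month samples carry numbers of their own. Their titles state 20 months while their codes begin with X and the number 18 (X18L16, for example). The study's text also names 20 months, but its supplement gives 18 months for samples of these tissues whose numbers end in the same digits. The older age is given here as in the titles and may be 18 months. WT mice were not analysed here, so each comparison is between ages or tissues of *Mlx*KO mice.

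Growth hormone from the pituitary binds the receptor Ghr on hepatocytes, and the receptor-bound kinase Jak2 then phosphorylates the transcription factors Stat5a and Stat5b. Stat5 induces genes that dampen the signal, among them *Socs2* and *Cish*, together with a growth programme that includes *Igf1*. In male mice growth hormone is released in pulses, whereas in females its release is more even, and this difference keeps some liver genes high in males and others high in females. *Hsd3b5*, *Elovl3*, *Slco1a1* and *Mup20* belong to the male-biased genes, and *Bcl6* encodes a repressor that can occupy the DNA sites of Stat5.

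The values are those deposited by the authors, which are CPM, reads counted per gene and set relative to the library total, divided by a further factor for each sample, and they are called values here. The liver libraries held 17200431 to 24179928 reads on genes, those of adipose tissue 15141861 to 25673919 and those of skeletal muscle 14384695 to 17961438. A value of 3 reads, taken as the floor of detection, lay between 0.0703 and 0.242, and this floor covers counting error only. The summed value of 7 hepatocyte markers was 50267 to 161901 in liver samples and at most 349.6 in the other tissues. Adipocyte markers (6 genes) summed to 6057 to 13587 in adipose tissue samples, and skeletal muscle fibre markers (6 genes) to 127742 to 162467 in muscle samples, so the tissues carried their own markers. *Mlx* itself had values of 24.2 to 32.4 in liver at 5 months and 18.8 to 27.8 at 20 months, and with no WT sample these do not measure the deletion. The study's own RT-PCR left more *Mlx* transcript, relative to WT, in skeletal muscle than in adipose tissue or liver of these 5-month mice. The older mice that it lists had the same order. Tissue and remaining *Mlx* can therefore not be told apart where liver is set against muscle. Among the 20-month livers, mouse 16 stood with the 5-month livers in several gene groups, and the liver counts are therefore given with and without this mouse. Mouse 74 stood apart in another way, with the hepatocyte transcript *Alb* at 26970 beside 53723 to 69595 in the other older livers. List counts are not given without mouse 74. Since mouse 16 was singled out from its values for these same genes, calls made without it follow in part from that choice and are given as a description.

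At 5 months the liver levels of the 10 genes spanned several orders of magnitude per kilobase of exon. *Mup20*, which encodes the major urinary protein darcin, had 6560 ± 603.6 value units per kilobase (SD, n = 4 mice), the highest of the 10. *Elovl3*, a fatty acid elongase, followed with 179 ± 25.3 (SD, n = 4). *Ghr* had 31.8 ± 6.31 and *Slco1a1*, an organic anion uptake transporter, 20.6 ± 7.87 (SD, n = 4), and these neighbours differed by less than the sum of their SDs. *Stat5b* had 15.0 ± 1.85, *Bcl6* 7.79 ± 2.96 and *Stat5a* 3.48 ± 0.317 (SD, n = 4). The feedback genes were low, with 1.82 ± 1.26 for *Socs2* and 0.854 ± 0.576 for *Cish* (SD, n = 4). *Hsd3b5*, a steroid dehydrogenase family member that is a classical male-specific liver transcript, was as low as these at 1.34 ± 1.03 per kilobase (SD, n = 4). Its liver libraries held only 13 to 64 reads on the gene, and 21.2% of its 50-base words occur also in *Gm10681*, *Hsd3b4* or *Gm4450*. For *Mup20* this share was 50.5%, with *Mup-ps19*, *Mup9* and *Mup2* as the genes sharing most, so that reads of the family may have been divided among them.

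With age, only *Ghr* among the 10 genes passed the test in liver (limma, Benjamini-Hochberg adjusted p under 0.05 over the 12654 genes tested, hereafter called). All 10 genes passed the filter on low values, which asked for 4 or more samples with a value of 1 or more. The 1 called gene in 10 stands against 19.8% of all genes tested in liver (1269 genes higher and 1239 lower at 20 months). Scaling without the 20 most abundant genes gave 2129 higher and 472 lower, moved the median of all genes to 0.16, and *Ghr*, at 0.68, was the 1 gene of the 10 called. The median log2 difference of the 10 genes was -0.08, beside 0.0011 for all genes tested.

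*Ghr* (gene ID 14600; chr15:3317755-3583352 in GRCm38.p6, overlapped by *Gm41254*) encodes the growth hormone receptor. Its liver values at 5 months were 262, 221, 319.9 and 348 in X5L4299, X5L5001, X5L5238 and X5L5239. At 20 months they were 352, 411, 446, 396 and 412 in mice 16, 17, 18, 19 and 74. All 5 older livers lay above all 4 younger ones, although the nearest pair, X5L5239 and mouse 16, was close. Absence of overlap was seen for 19.1% of the genes tested in liver and, among the 10 genes, for *Ghr* alone. The level rose from 288 ± 57.1 to 403 ± 34.1 (SD, n = 4 and 5), a log2 difference of 0.50 ± 0.142 (SE) with a limma adjusted p of 0.0331. An exact two-sided permutation test of *Ghr* alone gave p = 0.00794, the smallest that 4 against 5 mice allow. The call was lost when X5L4299, X5L5001 or mouse 17, 18 or 19 was left out, with adjusted p of 0.061 to 0.0904, with no filter on low values (0.0537), and when all 27 samples shared one fit (0.251). Without mouse 16 the difference was 0.55 with an adjusted p of 0.0193. The genes whose log2 values ran closest to *Ghr* over the 9 livers, of 10025 with a mean value of at least 5, were *Lect2* (Pearson r = 0.992), *Car3* (r = 0.990) and *Hmgn1* (r = 0.987). Their mean values went from 36.8 to 114, from 96.8 to 863 and from 48.9 to 73.7, and these likenesses are descriptions over 9 livers of 2 ages.

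**Figure D1:**
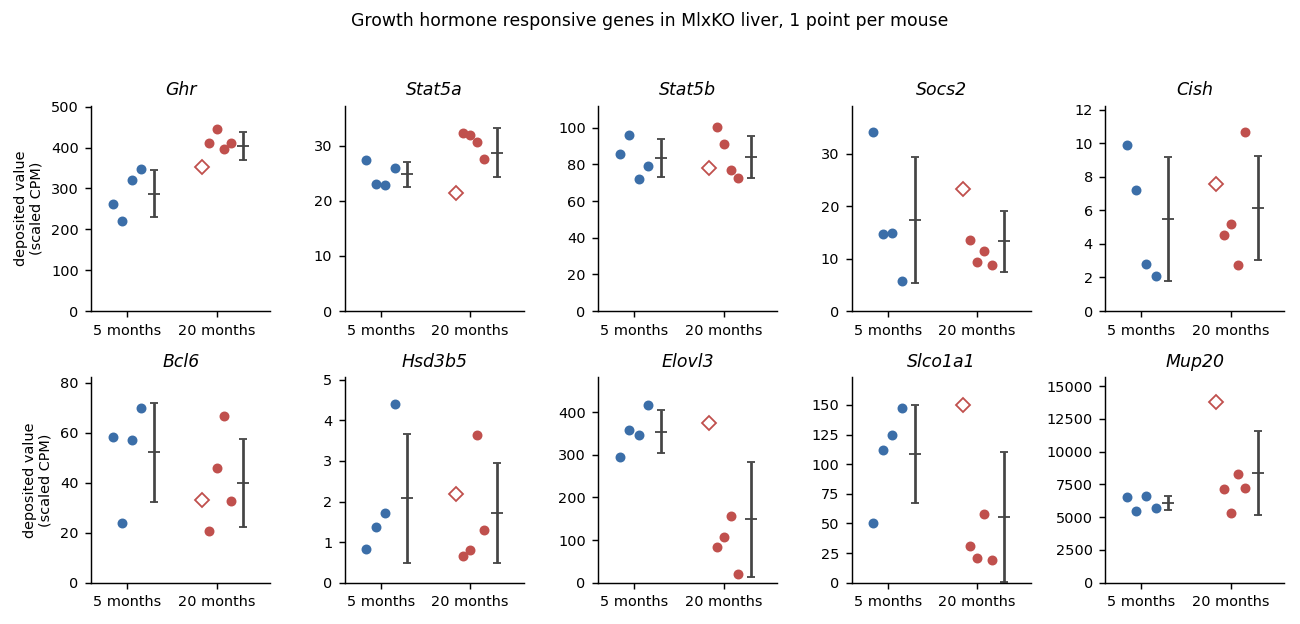
Values (scaled CPM, y axis from 0) of the 10 genes in each liver at 5 months (blue, n = 4) and 20 months (red, n = 5), 1 point per mouse, with mouse 16 as an open diamond and the mean ± SD beside the points. *Ghr* is the only gene whose ages do not overlap, and mouse 16 lies among the 5-month livers for *Elovl3* and above the other 20-month livers for *Slco1a1* and *Mup20*.

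The Stat5 transcription factors changed little with age in liver. *Stat5a* (gene ID 20850; chr11:100859351-100885169) had values of 22.9 to 27.4 at 5 months and 21.4 to 32.3 at 20 months, and the ages overlapped. Its log2 difference was 0.20, with a 95% interval of -0.10 to 0.49 and a limma adjusted p of 0.308. *Stat5b* (gene ID 20851; chr11:100780731-100859004), the form that mediates most of the male response in hepatocytes, had 71.9 to 96.1 at 5 months and 72.6 to 100.3 at 20 months. The *Stat5b* difference was 0.0067, with an interval of -0.27 to 0.28, and its sign was not stable across the alternatives. Of the 50-base words of *Stat5a* and *Stat5b*, 8.21% and 10.98% are common to both genes, which lie next to each other.

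*Socs2* and *Cish*, the inhibitors induced by Stat5, varied more between livers of one age than between the ages. *Socs2* (gene ID 216233; chr10:95383903-95417321) had 34.2, 14.6, 14.8 and 5.68 in the 5-month livers and 23.2, 13.6, 9.44, 11.4 and 8.82 in the 20-month livers, in the mouse order given above. The highest and the lowest of the 9 values were both from 5-month mice, and the highest was 6.02 times the lowest. *Cish* (gene ID 12700; chr9:107296659-107302784) had 9.86, 7.20, 2.78 and 2.08 at 5 months and 7.58, 4.51, 5.20, 2.73 and 10.7 at 20 months, again with full overlap. Log2 differences were -0.20 ± 0.41 for *Socs2* and 0.22 ± 0.41 for *Cish* (SE), with limma adjusted p of 0.753 and 0.724. Leaving out X5L4299 turned *Socs2* to 0.19, and leaving out X5L5239 turned *Cish* to -0.071, so neither direction was established. Intervals of -1.10 to 0.70 and -0.68 to 1.12 leave room for changes in either direction that these livers could not resolve.

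The sequences at the starts of these genes were searched for TTCNNNGAA, the palindrome bound by Stat5, which reads the same on both strands. RefSeq promoters in GRCm38.p6, with 250 bases before and 50 after each start, were found for 7 of the 10 genes (11 promoters), and no entry was used for *Socs2*, *Elovl3* and *Mup20*. Of 32851 promoters, 7.02% held the motif before the start and 8.30% anywhere in the window. Before the start, *Bcl6* was the gene among the 7 with a match, in both of its listed promoters. After the start, *Cish* held 2 matches in its first 20 transcribed bases. The stretches with the matches are shown because they place the motif in a feedback gene and in the repressor, with the motif in capitals.
Cish, chr9:107296659-107296678, + strand: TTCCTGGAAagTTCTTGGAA
Bcl6, chr16:23988957-23988975, - strand: attagTTCTCAGAAttcca
Bcl6, listed internal start, chr16:23981358-23981456, - strand: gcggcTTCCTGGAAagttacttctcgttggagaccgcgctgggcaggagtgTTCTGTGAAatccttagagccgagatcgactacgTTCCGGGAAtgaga
A match describes letters only. *Ghr*, *Stat5a*, *Stat5b*, *Hsd3b5* and *Slco1a1* held no match in these windows.

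*Bcl6* (gene ID 12053; chr16:23965050-23988866, overlapped by *Gm31527*) had liver values of 58.4, 23.7, 56.9 and 69.8 at 5 months and 33.0, 20.8, 45.8, 66.8 and 32.6 at 20 months. The ages overlapped across nearly the whole range. The log2 difference of -0.38 ± 0.349 (SE) was not called (limma adjusted p = 0.45).

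Among the 4 male-biased genes, *Elovl3* and *Slco1a1* were low in 4 of the 5 older livers but not in mouse 16. *Elovl3* (gene ID 12686; chr19:46131897-46135694, overlapped by *Pitx3*) had 296, 357, 346 and 418 at 5 months. At 20 months its values were 375 in mouse 16 and 83.6, 107, 157 and 21.3 in mice 17, 18, 19 and 74. The 4 latter livers lay below every younger liver, and mouse 16 lay within the younger range. Over all mice the log2 difference was -1.76 ± 0.606 (SE), with a limma adjusted p of 0.0611 and an exact two-sided permutation p of 0.0476 for *Elovl3* alone, so it was not called. Without mouse 16 it was -2.23, with an adjusted p of 0.00777, and *Elovl3* was then called. It was also called without mouse 74, at -1.21 and an adjusted p of 0.0493, and with all 27 samples in 1 fit (adjusted p = 0.00775). In edgeR and DESeq2 on the recovered reads the adjusted p were 0.129 and 0.156.

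*Slco1a1* (gene ID 28248; chr6:141907281-141946962, overlapped by *Gm30843*) had 50.1, 112, 125 and 147 at 5 months. At 20 months it had 149.9 in mouse 16 and 31.3, 20.7, 57.99 and 18.8 in mice 17, 18, 19 and 74. Mouse 16 was the highest of all 9 livers, and mouse 19 lay above the lowest 5-month liver, X5L4299, so the ages overlapped with or without mouse 16. The log2 difference was -1.29 ± 0.547 (SE), with a limma adjusted p of 0.111 and an exact two-sided permutation p of 0.119 for the gene alone. Without mouse 16 it was -1.76 with an adjusted p of 0.00817, and with all 27 samples in 1 fit the adjusted p was 0.0166.

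*Hsd3b5* and *Mup20* did not share this pattern. *Hsd3b5* (gene ID 15496; chr3:98618636-98645534) had 0.827, 1.38, 1.71 and 4.40 at 5 months and 2.19, 0.651, 0.795, 3.63 and 1.30 at 20 months, with a log2 difference of -0.17 and an adjusted p of 0.769. Both ages held it near the lower end of what these libraries measure well. *Mup20* (gene ID 381530; chr4:62011337-62054143) had 5512 to 6624 at 5 months and 13806, 7159, 5325, 8291 and 7262 at 20 months. Mouse 16 was the highest, and the lowest value of the 9 was also from a 20-month liver. The log2 difference was 0.39 ± 0.295 (SE), and limma gave an adjusted p of 0.359. Without mouse 16, 3 of the 10 genes were called in liver, *Ghr* higher and *Elovl3* and *Slco1a1* lower, while the number of all genes called went from 2508 to 3557 of 12571 tested. The other 7 genes were not called without mouse 16. Among them the log2 difference of *Mup20* went from 0.39 to 0.19, that of *Socs2* from -0.20 to -0.41, that of *Stat5a* from 0.20 to 0.29 (limma adjusted p = 0.0663), that of *Cish* from 0.22 to 0.13 and that of *Hsd3b5* from -0.17 to -0.25.

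**Figure D2:**
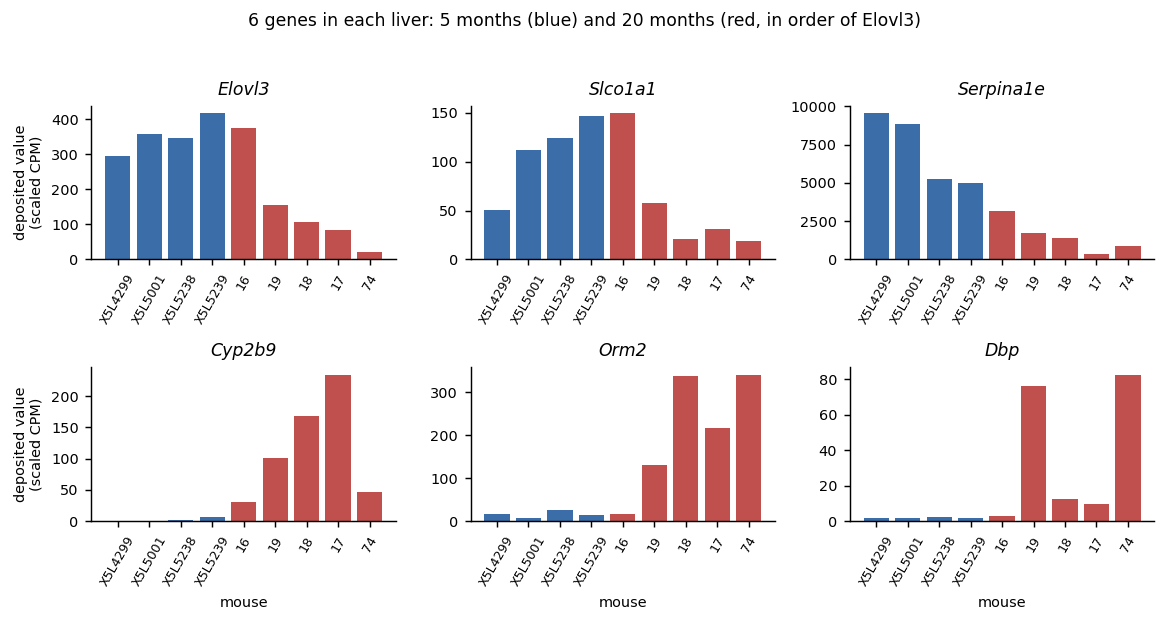
Values (scaled CPM, bars from 0) of 6 genes in each of the 9 livers, with the 4 mice of 5 months in blue and the 5 of 20 months in red, the latter in the order of their *Elovl3* value. *Elovl3* and *Slco1a1* in mouse 16 (375 and 149.9) lie with the younger livers, *Orm2* in mouse 16 (15.98) does too, whereas *Cyp2b9* in mouse 16 (30.02) lies above all 5-month livers (0.127 to 6.72).

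Other genes of sex-biased expression were described from 2 further lists, one of male-biased and one of female-biased liver genes. Counts of these and of the later liver lists stand beside 19.8% of all liver genes called. Without mouse 16 they stand beside 3557 of 12571. Of 14 male-biased genes tested, 6 were called, 5 lower and 1 higher at 20 months, with a median log2 difference of -0.49. The lower genes with the largest decreases were *Serpina1e*, a protease inhibitor of the alpha-1-antitrypsin cluster, and *Ugt2b38*, a glucuronosyltransferase. *Serpina1e* had 9564, 8825, 5232 and 5020.0 at 5 months against 3153, 351, 1370 (mouse 18), 1726 and 860 at 20 months, and all older livers lay below all younger ones (log2 difference -2.54 ± 0.525 SE, limma adjusted p = 0.0127). *Ugt2b38* fell by 1.70 on the log2 scale (adjusted p = 0.0496), with values of 0.1002 to 10.5 at 20 months beside 5.60 to 11.5 at 5 months. It needed the 5-month livers, where it was higher, to pass the filter, so its call is a description. *Susd4*, the gene called higher, went from 32.6 ± 20.1 to 68.2 ± 6.10 (SD, n = 4 and 5; log2 difference 1.25, adjusted p = 0.0281). The families of *Serpina1e* and *Ugt2b38* hold close copies, among which reads may have been divided. Without mouse 16, 8 of 14 were called, 7 lower and 1 higher.

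Of 9 female-biased genes tested, out of 19 listed, 6 were called, 5 higher and 1 lower. *Cyp2b13*, *Cyp3a41a* and *Slc22a27* were under 1 in every 5-month liver and passed the filter only through the older ones, where they had to be higher. *Cyp2b9*, *Ntrk2*, *Slc22a26* and *Prom1* were under 1 in at least 1 younger liver and needed older ones to pass. Neither the count of called genes nor the median of the tested genes therefore measures the whole list. *Cyp2b9*, a cytochrome P450 of female liver, had 0.127, 0.145, 2.14 and 6.72 at 5 months and 30.02, 234, 168, 101 and 46.1 at 20 months. Every older liver was above every younger one, mouse 16 being the lowest of the older livers (log2 difference 5.25 ± 0.682 SE, limma adjusted p = 0.00496). That call is given as a description, since *Cyp2b9* needed the older livers to pass the filter. *Cyp2b13*, its close relative, was at 0 in 3 of the 4 younger livers and at 0.240 in X5L5239, against 1.42 to 42.8 in the older ones, and reads of the pair could be divided between them. *Tox*, the gene called lower, had values of 11.8 to 31.4 at 5 months and 7.12 to 11.5 at 20 months (log2 difference -0.92, adjusted p = 0.0264). Without mouse 16, 7 of 9 were called, 6 higher and 1 lower.

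Signalling genes around the receptor moved in both directions in liver. Of 12 tested, 5 were called, 3 higher and 2 lower, with a median of 0.04, where 19.8% of all liver genes were called. *Prlr*, the prolactin receptor, rose from 59.5 ± 11.5 to 103 ± 27.6 (SD, n = 4 and 5), a log2 difference of 0.76 with a limma adjusted p of 0.0336. *Lepr*, the leptin receptor, fell by 1.82 on the log2 scale (adjusted p = 0.0251), from values of 4.71 to 29.2 to values of 2.05 to 4.16. *Ptpn11*, which encodes the phosphatase Shp2, fell by 0.45 (adjusted p = 0.0251). *Socs1*, a further feedback inhibitor, had 0.0713 to 0.582 at 5 months and 0.611 to 1.504 at 20 months. It is counted among the 3 higher, but it passed the filter only through the older livers, so its call is not read as a result. The kinase gene *Jak2* had a log2 difference of 0.023 (adjusted p = 0.942). Without mouse 16 the same 5 genes were called.

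Growth factor genes under growth hormone control were not called in liver, where 0 of 5 passed the limma test. *Igf1*, the main growth mediator of the liver, had 380.1 to 554 at 5 months and 327 to 402 at 20 months (log2 difference -0.25, adjusted p = 0.176). *Igfals*, which stabilises circulating Igf1, had a log2 difference of 0.43 (adjusted p = 0.228). Without mouse 16, 1 of 5 was called, *Igfbp1*, lower. Of 13 hepatocyte transcription factors acting with Stat5, 1 was called, *Onecut1*, which fell from 6.87 ± 0.763 to 3.51 ± 1.88 (SD, n = 4 and 5; log2 difference -0.90, adjusted p = 0.0399). That call was lost without mouse 16, where *Trim24* was called higher instead.

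**Figure D3:**
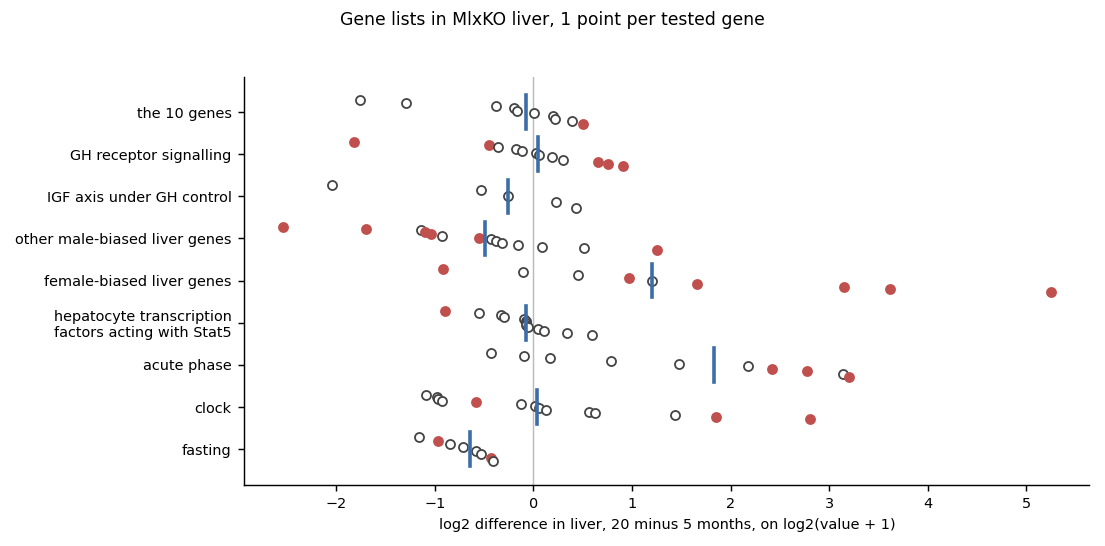
Log2 difference in liver, 20 minus 5 months (x axis, on log2(value + 1)), of each tested gene in the 10 genes and 8 further lists, with called genes as filled red points, other genes open and the median of each list as a blue bar. Acute phase genes have a median of 1.83, male-biased genes one of -0.49 and the 10 genes one of -0.08. The points of the female-biased list are the 9 of 19 genes that passed the filter. Of these, all but *Tox* and *Acot3* needed the older livers to pass.

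Some acute phase genes, whose transcripts hepatocytes make under inflammatory signals, were also high in the older livers other than mouse 16. Of 10 tested, 3 were called, all higher, with a median log2 difference of 1.83, where 19.8% of all liver genes were called. The abundant members *Fgb*, *Itih4* and *Hp* were not called (log2 differences of -0.43, -0.097 and 0.16), and the summed value of the list was 8751 in mouse 16, below all 5-month livers (11656 to 15804), and 13614 to 20641 in the other older livers. *Orm2* had 6.84 to 24.7 at 5 months and, at 20 months, 15.98 in mouse 16 and 131 to 341 in the others (log2 difference 3.20 ± 0.769 SE, limma adjusted p = 0.0198). *Saa3* rose by 2.77 (adjusted p = 0.0401) and *Saa2*, named after its value was seen, by 2.42 (adjusted p = 0.019). *Lcn2* was at 10.7 in mouse 16 and at 111 to 903 in the other older livers, beside 8.56 to 31.1 at 5 months. Without mouse 16, 7 of 10 were called, all higher. The order of the older livers by *Elovl3* was 16, 19, 18, 17 and 74, and by *Lcn2* it was 74, 18, 19, 17 and 16. The part of inflammation in the values of *Elovl3* and *Slco1a1* was not tested.

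Clock and fasting genes, which follow the hour of the day and feeding, were called at shares near the 19.8% of all liver genes. Of 14 clock genes tested, 3 were called, 2 higher and 1 lower, with a median of 0.033. *Dbp* was at most 2.28 at 5 months and 2.60, 9.67, 12.5, 76.3 and 82.6 at 20 months (log2 difference 2.81, adjusted p = 0.0332). *Nr1d1* went from 27.8 ± 18.1 to 94.1 ± 31.4 (SD, n = 4 and 5; log2 difference 1.85, adjusted p = 0.00969), and *Clock* fell by 0.58 (adjusted p = 0.0151). Without mouse 16, 8 of 14 were called, 4 in each direction. Of 8 fasting genes tested, 2 were called, both lower: the gluconeogenic gene *Pck1* by 0.96 (adjusted p = 0.0497) and *Cpt1a*, of mitochondrial fatty acid import, by 0.43 (adjusted p = 0.0495). Without mouse 16 there were 6 of 8, all lower. *Elovl3* is itself known to cycle over the day, and the hour of collection, which is not given in the sources used here, was not tested.

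Cell type markers moved with age in liver as well, where 19.8% of all genes tested were called. Hepatocyte markers summed to 107814 to 161901 at 5 months and 50267 to 102044 at 20 months, with 1 of 7 called, *Tat*, lower. *Alb*, the most abundant of them, had means of 96938 and 55182 and was not called (limma adjusted p = 0.331). Log2 differences of the others were -0.43 for *Apob*, -0.32 for *Serpina1a*, -0.053 for *Apoa1*, -0.034 for *Ttr* and 0.083 for *Fabp1*. All 4 B cell markers were called higher, with sums of 1.24 to 6.48 and 6.63 to 14.03, and 4 of 6 stellate cell or fibroblast markers were, with sums of 273 to 393 and 377 to 548. The B and T cell markers tested needed older livers to pass the filter, so their calls are a description. For macrophages 2 of 8 were called higher, and 5 of 8 without mouse 16, whose sum of 261 lay within the 221 to 351 of the 5-month livers while the other older livers had 536 to 834. Erythroid genes were called higher in 4 of 5 (sums of 664 to 842 and 953 to 1257), and in 5 of 5 without mouse 16. Cholangiocyte markers were called in 2 of 5, 1 in each direction, T cell markers in 1 of 2 and pancreas acinar markers in 1 of 1, both higher, and endothelial markers in 1 of 5 and adipocyte markers in 1 of 2, both lower. Skeletal muscle fibre markers summed to at most 0.56 in liver. In whole tissue fewer cells of a type and less RNA per cell cannot be told apart, and the part of these markers in the values of the 10 genes was not tested.

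**Figure D4:**
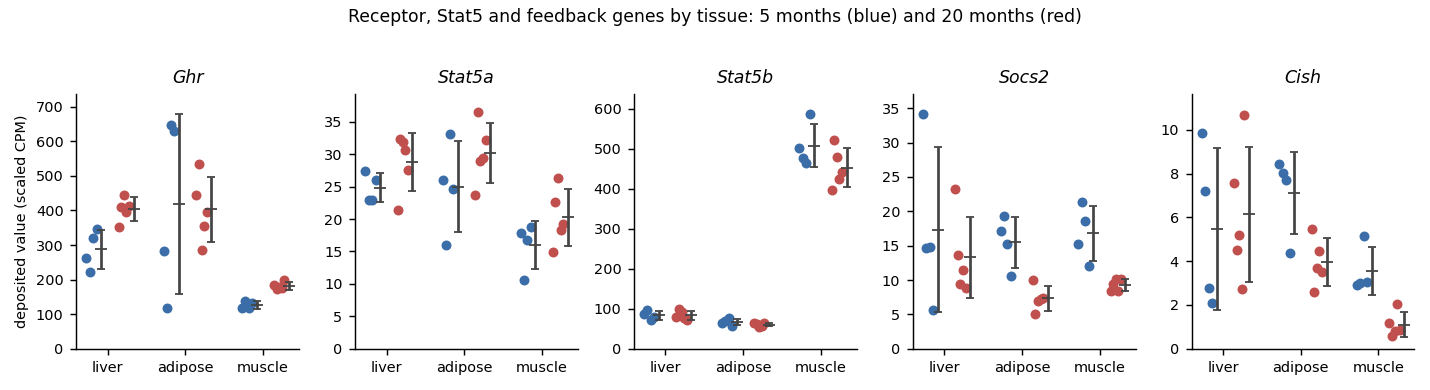
Values (scaled CPM, y axis from 0) of *Ghr*, *Stat5a*, *Stat5b*, *Socs2* and *Cish* in liver, adipose tissue and skeletal muscle at 5 months (blue, n = 4) and 20 months (red, n = 5), 1 point per sample, with mean ± SD. The ages do not overlap for *Socs2* in adipose tissue and muscle or for *Cish* in muscle and overlap for both genes in liver and for *Cish* in adipose tissue, *Ghr* is higher at 20 months in liver and muscle, and *Stat5b* lies at 397 to 586 in muscle.

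Outside liver, *Socs2* and *Cish* fell with age in both other tissues. In adipose tissue 7 of the 10 genes passed the filter and 2 were called, both lower, where 19.1% of the 14005 genes tested were called, 9.75% higher and 9.35% lower. In skeletal muscle 7 passed and 3 were called, 1 higher and 2 lower, where 19.3% of the 12720 genes tested were called, 9.13% higher and 10.1% lower. *Hsd3b5*, *Elovl3* and *Slco1a1* did not reach the filter in either tissue.

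Cell type markers moved with age in these tissues too, and their counts stand beside the shares of all genes just given. In adipose tissue all 4 B cell markers were called higher (sums of 2.96 to 15.1 at 5 months and 10.98 to 150.04 at 20 months), as were 2 of 7 macrophage and 2 of 4 T cell markers. Of the B and T cell markers called, all but *Cd79b* needed older samples to pass the filter. Endothelial markers were called lower in 3 of 4 there (457 to 921 and 211 to 476) and erythroid genes in 2 of 5, while 0 of 6 adipocyte markers were called by limma. In skeletal muscle 4 of 5 stellate cell or fibroblast markers were called lower (982 to 1389 and 497 to 849), as were 2 of 4 macrophage markers (58.6 to 91.1 and 24.3 to 46.9) and 3 of 5 erythroid genes. Of 4 endothelial markers in muscle 1 was called higher and 2 lower, and of 6 muscle fibre markers 1 was called higher. Clock genes were called in 8 of 14 in muscle, 4 in each direction, and in 3 of 14 in adipose tissue, all lower. Fasting genes were called in 3 of 6 in muscle, all lower, and in 0 of 7 in adipose tissue. The part of these markers, of the hour of collection or of feeding in the values of *Socs2*, *Cish* and *Ghr* was not tested.

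*Socs2* in adipose tissue had values of 17.1, 19.2, 15.2 and 10.5 at 5 months and 9.99, 5.02, 6.93, 7.24 and 7.41 at 20 months. The older values all lay below the younger ones, as was so for 1 of the 7 genes and in either direction for 17.4% of all genes tested in adipose tissue. The log2 difference was -0.99 ± 0.203 (SE), with a limma adjusted p of 0.0193, and an exact two-sided permutation test gave p = 0.00794. Without X5F4299 or X5F5001 the adjusted p was 0.062 or 0.0545. *Cish* in adipose tissue had 8.45, 8.02, 7.70 and 4.37 at 5 months and 5.48, 2.61, 3.69, 4.48 and 3.52 at 20 months, overlapping through X5F5239. Its log2 difference of -0.71 ± 0.218 (SE) had an adjusted p of 0.0486, next to the threshold, and the call was lost when any 1 of X5F4299, X5F5001, X5F5238 and mice 37, 38, 39 and 40 was left out (0.0789 to 0.13).

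*Ghr* in adipose tissue, a tissue that also responds to growth hormone, had 283, 119, 646 and 629 at 5 months and 445, 536, 284, 356 and 397 at 20 months. The younger samples spanned more than the older ones on both sides. Its log2 difference of 0.20, with an interval of -0.83 to 1.24, was not called (adjusted p = 0.757) and turned to -0.30 without X5F5001. *Stat5a* and *Stat5b* in adipose tissue had log2 differences of 0.29 and -0.15, with adjusted p of 0.275 and 0.288. For *Bcl6* the 5-month values were 37.9, 39.6, 109 and 50.2 and the 20-month values 36.1 to 50.1 (log2 difference -0.30, adjusted p = 0.443), and without X5F5238 the difference was 0.040.

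In skeletal muscle *Ghr* had 118, 137, 117 and 134 at 5 months and 185, 172, 178, 176 and 199.6 at 20 months. These ages did not overlap, which was so for 3 of the 7 genes and for 17.3% of all genes tested in muscle. The receptor gene rose by 0.52 ± 0.0859 (SE) on the log2 scale, with a limma adjusted p of 0.00389. *Socs2* had 15.3, 21.3, 18.6 and 11.99 at 5 months and 8.41, 9.44, 10.2, 8.38 and 10.1 at 20 months, and fell by 0.76 ± 0.154 (SE; adjusted p = 0.00886). *Cish* had 2.92, 2.98, 5.17 and 3.07 at 5 months and 1.17, 0.598, 0.796, 2.06 and 0.855 at 20 months, from 9 to 66 reads, and fell by 1.12 ± 0.216 (SE; adjusted p = 0.00728). It met the filter through its 5-month samples, where it was higher. Its call was kept in all 9 alternative settings that tested it, leaving out the filter among them. For these 3 genes the ages were fully separated, and the calls remained without any 1 muscle sample. With all 27 samples in 1 fit, *Ghr* and *Socs2* were no longer called in muscle (adjusted p of 0.264 and 0.105).

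*Bcl6* in muscle had 63.9, 115, 57.8 and 72.2 at 5 months and 119.5, 109, 143, 75.3 and 102 at 20 months. X5S5001 lay among the older samples and mouse 59 among the younger. The log2 difference of 0.52 ± 0.209 (SE) was not called (adjusted p = 0.0942), but it was without X5S5001 (0.0183), without mouse 59 (0.0491) and after scaling without the 20 most abundant genes (0.0391). *Stat5a* and *Stat5b* had differences of 0.33 and -0.16, with adjusted p of 0.22 and 0.275.

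Downstream of the receptor, *Igf1* in muscle fell from 13.5 ± 6.96 to 5.77 ± 2.06 (SD, n = 4 and 5; log2 difference -1.04, limma adjusted p = 0.0338), the 1 called of 3 growth factor genes tested there. In adipose tissue *Igfals* rose from 1.06 ± 1.01 to 11.1 ± 5.09 (SD, n = 4 and 5; log2 difference 2.54, adjusted p = 0.0118), the 1 called of 5. Both are named after their values were seen, and *Igfals* in adipose tissue needed the older samples to pass the filter. Of the signalling genes, 3 of 12 were called in adipose tissue (1 higher, 2 lower), near the 19.1% of all genes there, and 5 of 10 in muscle (1 higher, 4 lower), where 19.3% of all genes were called. Among the latter was *Jak2*, which fell by 0.32 (adjusted p = 0.0375).

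**Figure D5:**
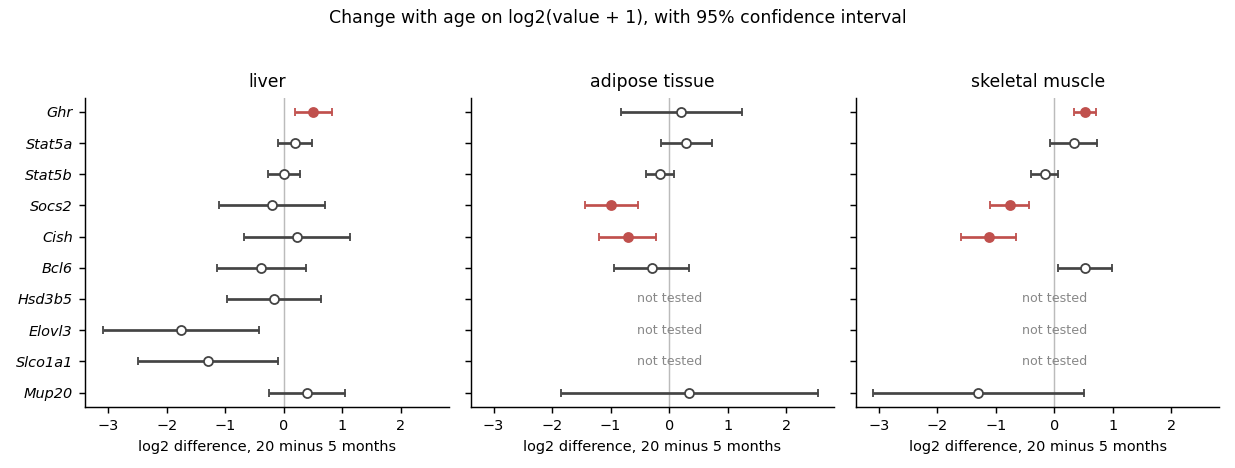
Log2 difference, 20 minus 5 months (x axis, on log2(value + 1)), with the 95% confidence interval from limma, of the 10 genes in each tissue, with called genes filled in red and genes below the filter written as not tested. *Socs2* and *Cish* are called lower in adipose tissue and skeletal muscle and their liver intervals include 0, while *Ghr* has 0.50 in liver and 0.52 in skeletal muscle.

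The differences between tissues in the change with age were tested with all 27 samples in the same fit. The 2 comparisons share the liver samples, so their values stand side by side and are not independent. *Cish* was called for liver against muscle, with a difference of 1.35 ± 0.459 (SE) on the log2 scale and a limma adjusted p of 0.0431 (0.0346 with the mouse as a block). It was the 1 gene of 10, where 17.5% of the 15572 genes tested were called. Of 18 fits that each left out 1 sample, 12 gave an adjusted p of 0.0537 to 0.109 and no call. *Socs2* differed by 0.56, with an interval of -0.34 to 1.46 (adjusted p = 0.406), and *Ghr* by -0.018, with an interval of -0.89 to 0.86. Against adipose tissue 0 of 10 were called in limma, edgeR and DESeq2, where 15.6% of all genes were called in limma. At an unadjusted p under 0.05 limma counted 2, *Elovl3* and *Slco1a1*, both close to 0 in adipose tissue, and edgeR and DESeq2 counted 0. *Cish* and *Socs2* differed by 0.93 and 0.78 against adipose tissue, with intervals of -0.014 to 1.88 and -0.12 to 1.69. *Socs2* was called here without X5L4299 (adjusted p = 0.0404).

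Levels at 5 months were compared between tissues of the same 4 mice. Between liver and adipose tissue 5 of the 10 genes were called, where 76.4% of all genes were, and between liver and muscle 7 were, where 72.9% of all genes were. *Mup20*, *Elovl3*, *Slco1a1* and *Hsd3b5* are among these in both comparisons, but they had been chosen as liver genes and the last 3 passed the filter only through liver, so their differences are a description. They were higher in liver by 11.1, 7.81, 6.63 and 1.49 on the log2(value + 1) scale against adipose tissue. *Hsd3b5* was at 0 in all 9 muscle samples and had 1 read in 1 adipose tissue sample. The labels name a lipid tissue kit for the RNA of adipose tissue and muscle and another kit for liver, whereas the study's methods name the same kit for all samples, so tissue and kit may not be told apart.

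*Ghr* was higher in liver than in muscle by 1.16 ± 0.316 (SE; limma adjusted p = 0.00198) and did not pass the test against adipose tissue, at -0.27 with an interval of -0.92 to 0.38. Scaling without the 20 most abundant genes turned the latter into a call, at -1.23 (adjusted p = 0.000736). In the deposited values at 20 months its liver and adipose tissue means were 403 ± 34.1 and 404 ± 94.4, above 182 ± 10.8 in muscle (SD, n = 5). *Stat5b* was lower in liver than in muscle by 2.60 (adjusted p = 9.00e-17), and *Stat5a* was higher by 0.63 (adjusted p = 0.00562), a call lost under that scaling, at 0.37 (adjusted p = 0.105). Within a sample, *Stat5b* exceeded *Stat5a* per kilobase by 3.23 to 5.38 times in liver, 2.15 to 5.57 times in adipose tissue and 23.4 to 57.8 times in muscle, so the muscle range stood clear of the others. Against adipose tissue *Stat5b* was higher in liver by 0.31 ± 0.117 (SE; adjusted p = 0.0199), but scaling without the 20 most abundant genes, which moved the median of all genes to -0.85, turned it to -0.64 (adjusted p = 4.42e-05). All 10 genes were called under that scaling, *Ghr*, *Stat5a*, *Stat5b*, *Socs2*, *Cish* and *Bcl6* lower and the 4 male-biased genes higher in liver. Over all genes, 13046 of 15804 tested were called under it, 10417 of them lower in liver. The 20 most abundant genes took 19.8% to 25.9% of a liver sample and 9.56% to 14.2% of an adipose tissue sample.

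*Mup20* outside liver followed the liver transcript *Alb*. In adipose tissue it had 0.798, 0.185, 3.82 and 4.57 at 5 months and 25.1, 0, 8.27, 0.0703 and 1.02 at 20 months, and *Alb* was highest, at 173, in the sample of mouse 36 that was highest for *Mup20*. In muscle it had 29.7 in X5S5238 and at most 4.05 elsewhere, and *Alb* was 222 in that sample and at most 43.1 elsewhere. *Slco1a1* was detected in muscle in that sample alone, at 0.548. In samples with at least 10 reads on it, *Mup20* was 8.63% to 14.4% of *Alb* in adipose tissue, 4.31% to 13.4% in muscle and 4.40% to 26.9% in liver. Whether these reads came from liver RNA was not tested, and *Mup20* was not called with age in adipose tissue (adjusted p = 0.807) or muscle (adjusted p = 0.274).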

How the data were processed

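RNA-seq was analysed in 27 samples of *Mlx*KO mice, grouped by the tissue and age in their labels. The 10 genes and all gene lists were chosen with earlier results of these data known. The authors mapped and counted reads in CLC Genomics Workbench and deposited 1 scaled signal per gene and sample, CPM divided by a factor for each sample. Summed and divided by 1e6, the deposited values of a sample came to 0.559 to 1.395, and 100% were whole numbers of reads once divided by what 1 read is worth (tolerance 0.01), which recovered the reads. The design had assumed CPM, and its tests were kept. GRCm38.p6 is the build named in the submitters' processing notes, and coordinates and lengths come from GENCODE and RefSeq annotation of it, matched by gene ID. Strand use in counting is not given in the sources used here, so reads of overlapping genes may be mixed.

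Ages were compared within each tissue on log2(value + 1), using limma 3.58.1 (R 4.3.3) and its variance trend, for genes that reached a value of 1 in 4 or more samples. P-values were adjusted by the Benjamini-Hochberg method, and those under 0.05 were called. A log2 difference on this scale understates the change of low genes. Exact permutation tests of single genes were two-sided and used all splits. Tissues were compared in a single fit, once plain and once with the mouse as a block. The mice of 5 months gave all 3 tissues, and the deviations of same-mouse samples correlated between tissues at -0.017 to 0.294 (12 pairs, 7 over 0.1). The labels do not say that samples at 20 months share mice. Among 48 pairs of replicates none was identical, and the lowest chi-square per degree of freedom was 9.81. In 5-month liver it was 14.4 for X5L5238 with X5L5239 and 45.6 for X5L4299 with X5L5001. Other pairs of these livers had 96.6 to 110, so they were not equally alike.

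Named genes are the 10 genes and, from each list, up to 2 called genes with the largest increase and up to 2 with the largest decrease in liver, plus the 3 genes closest to each of the 10 that was called in liver. Other genes were named after their values were seen, and 1 result that the rule would name is not reported here. Lists are described by counts and medians. Alternatives were a pseudocount of 0.5 or 0.1, leaving out the filter, a filter on a mean of 5, median-of-ratios scaling, leaving out the variance trend, scaling without the 20 most abundant genes, DESeq2 1.42.0 and edgeR 4.0.16 run on recovered reads, all 27 samples in 1 fit, and each sample left out. The fits were tested on simulated data.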

Additional observations from a re-analysis of the deposited data

Results flagged for a closer look

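Of 56 groups of samples examined, 1 gene and 1 age of 1 tissue each, 6 held a sample far from the others by Dixon's criterion on log2(value + 1). Chance meets this criterion in about 1 of 20 groups of normally spread values. A group with 1 sample above 0 and the others at 0 always meets it, so that rate does not apply there. The *Hsd3b5* group and both *Slco1a1* groups below are of this kind. In adipose tissue at 5 months, *Cish* was lowest in X5F5239, at 4.37. In skeletal muscle at 5 months, *Cish* was highest in X5S5238, at 5.17, and *Slco1a1* was highest in the same sample, at 0.548. *Hsd3b5* was highest at 0.0332 in X5F5238 in adipose tissue at 5 months, and *Slco1a1* at 0.0295 in mouse 36 in adipose tissue at 20 months, each from 1 read. *Mup20* was highest at 4.05 in mouse 58 in skeletal muscle at 20 months. The change of *Cish* with age differed between liver and skeletal muscle by 1.35 on the log2 scale in the test of the difference itself (limma adjusted p = 0.0431).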

How the results depend on the processing

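Of 630 refits of 32 single values of the 10 genes, 565 kept their direction and their side of the threshold, 39 lost a call, 9 gained one and 17 changed sign. In liver, where 1 of the 10 genes was called, the count was 0 with no filter, 2 with all 27 samples in 1 fit and 0 to 3 when 1 sample was left out. In adipose tissue 2 were called, and 1 with no filter, with a filter on a mean of 5, with scaling without the 20 most abundant genes and with all 27 samples in 1 fit, and 0 to 2 with 1 sample left out. In skeletal muscle 3 were called, 1 with all 27 samples in 1 fit and 3 to 4 with 1 sample left out. For the age change of liver against muscle 1 was called, 0 with no filter, a filter on a mean of 5 or scaling without the 20 most abundant genes, and 0 to 2 with 1 sample left out. Against adipose tissue 0 were called, and 0 to 2 with 1 sample left out. For levels at 5 months against adipose tissue 5 were called, and 4 to 6 with 1 sample left out. Scaling without the 20 most abundant genes gave 10, where 13046 of all 15804 genes were called. Against muscle 7 were called in each such fit, with *Bcl6* in place of *Stat5a* under that scaling. The mouse as a replicate block gave 0, 1, 5 and 7 called for these between-tissue results in the same order of comparison (age change against adipose tissue and muscle, then levels), and changed no call.

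Signs that changed were all of values not called but for *Stat5b* between liver and adipose tissue, -0.64 under scaling without the 20 most abundant genes. *Stat5b* in liver was -0.0077 with median-of-ratios scaling and -0.061 to 0.077 with 1 sample left out. With 1 sample left out, *Socs2* in liver was -0.61 to 0.19, *Cish* -0.071 to 0.54 and *Hsd3b5* -0.39 to 0.14, and in adipose tissue *Bcl6* was -0.46 to 0.040, *Ghr* -0.30 to 0.51 and *Mup20* -0.38 to 0.80. *Ghr* in adipose tissue was -0.035 in edgeR and -0.051 in DESeq2, and *Mup20* there was -0.16 with a pseudocount of 0.1. The cause was not tested.

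Scaling without the 20 most abundant genes moved the median log2 difference of all liver genes to 0.16 and the liver calls from 1269 higher and 1239 lower to 2129 higher and 472 lower. In muscle it moved them from 1161 higher and 1290 lower to 1846 and 977. *Ghr* in liver was 0.68 under it. Calls over all genes with 1 sample left out numbered 959 to 3557 in liver. They numbered 397 to 3748 in adipose tissue and 1158 to 3796 in muscle. In adipose tissue 1525 genes were called with no filter, 4347 in DESeq2 and 5270 with all 27 samples in 1 fit, beside 2674, and in muscle 1507 with no filter, beside 2451. Depth limited *Hsd3b5* and *Cish*, with 13 to 64 and 26 to 213 reads in liver.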
